A study of Mus musculus with 6 samples.

Results

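The microRNAs miR-26a and miR-26b (array names mmu-miR-26a and mmu-miR-26b) were read in MCT, a renal tubular line from SJL H-2S mice, with and without transforming growth factor beta (TGFbeta). They are the 2 array entries that carry these names, star forms left out, among 611 mouse miRNA entries, and 4 of the 1759 mouse probes read them. The TGFbeta group (3 arrays) was given TGFbeta at 3 ng/ml for 72 hours, and the control group (3 arrays) was not. Cells were kept in 10% fetal calf serum, medium with 0.5% serum was put on before TGFbeta was added, and each 1-colour Agilent array took Cy3-labelled miRNA from 100 ng of total RNA. The labels do not state separate cultures, so p-values cover only the spread of these samples, possibly a technical one. MCT is a single established line, and the labels name no vehicle for the control.

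A miRNA guides the Argonaute protein to messenger RNAs that pair with its seed, the stretch near its 5′ end, and so lowers their translation and stability. The miR-26 family is found in many tissues. Its mouse genes lie within genes of small C-terminal domain phosphatases, enzymes that act on RNA polymerase II and on the retinoblastoma protein. Reported targets include the histone methyltransferase Ezh2 and, in mouse muscle cells, the TGFbeta family signal transducers Smad1 and Smad4.

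The mature sequences are shown because the pair has 1 seed and differs little outside it, which bears on how far probes could tell the members apart. Both members matched RefSeq's mature sequences (GRCm38.p6) under their later names, miR-26a-5p and miR-26b-5p. Capitals mark the seed, bases 2 to 8.
miR-26a: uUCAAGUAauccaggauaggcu
miR-26b: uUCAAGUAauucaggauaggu
miR-26a has 22 bases and miR-26b has 21. Over the 21 bases they share, counted from 1 at the 5′ end, the substitutions from miR-26a to miR-26b are C11U and C21U. These 2 were the only names with the seed among 1679 mature mouse miRNA names in that table. The sequence of miR-26a comes from 2 loci, Mir26a-1 within Ctdspl (chr9:119031811-119031832, plus strand) and Mir26a-2 within Ctdsp2 (chr10:126995543-126995564, plus strand), which an array cannot separate. miR-26b comes from Mir26b within Ctdsp1 (chr1:74394324-74394344, plus strand). Probe sequences are not used here, and cross-hybridisation between the members was not tested.

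Each array had between 74 and 103 of the 611 mouse miRNAs well above background, and 504 were so on none. All 6 arrays lay on 1 slide. Control 1 stood apart. Over the 84 miRNAs tested, its median absolute log2 difference was 0.26, 0.21 and 0.16 from TGFbeta 1 to 3, and 0.48 and 0.52 from controls 2 and 3, while controls 2 and 3 differed by 0.06. The members' scaled differences are therefore given with and without control 1, other than those with a block. As to cell identity, the epithelial list (miR-200 family and miR-141) had 0 of 5 members well above background on any array. The kidney tubule list (miR-192, miR-194, miR-215 and miR-204) had 0 of 4. The mesenchymal and smooth muscle list had 0 of 5 on the array, the blood cell list 0 of 6 and the endothelial list 0 of 2, so none of the listed markers speaks for or against the labelled cell type by a positive signal.

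Both members were dim, and each rested mainly on 1 of its 2 probes. A probe is 10 spots per array, and a probe is called well above background here if the scanner software marked a share of 0.5 or more of its spots so. For miR-26a, probe A_54_P4384 read a mean processed signal of 64.4, 60.0 and 48.2 intensity units on TGFbeta 1 to 3, and 47.5, 61.3 and 57.8 on controls 1 to 3. It was well above background on 6 of 6 arrays and in 59 of 60 spots. TGFbeta 3 and control 1 were the low arrays, and the groups overlapped.

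The other miR-26a probe, A_54_P2481, read 31.4, 22.8 and 20.5 on TGFbeta 1 to 3, and 16.7, 23.0 and 19.3 on controls 1 to 3. It was well above background on TGFbeta 1 only, with 9 of 10 spots there and 0 to 4 of 10 on each other array.

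For miR-26b, probe A_54_P2484 read 30.5, 30.5 and 26.5 on TGFbeta 1 to 3, and 24.2, 34.3 and 31.9 on controls 1 to 3. The probe passed that limit on 6 of 6 arrays, but on control 1 with only 5 of its 10 spots, exactly at the limit. Control 1 was the lowest array and controls 2 and 3 the highest, with the TGFbeta arrays between them.

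The other miR-26b probe, A_54_P2483, read 15.9, 15.4 and 17.6 on TGFbeta 1 to 3, and 10.9, 15.9 and 18.9 on controls 1 to 3. It was well above background on no array, with 4 of 60 spots marked. The 95th percentile of the 434 negative control spots lay between 11.7 and 24.6 units per array. Of the 60 spots of each probe, 60 of A_54_P4384, 43 of A_54_P2481, 55 of A_54_P2484 and 27 of A_54_P2483 exceeded it.

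**Figure D1:**
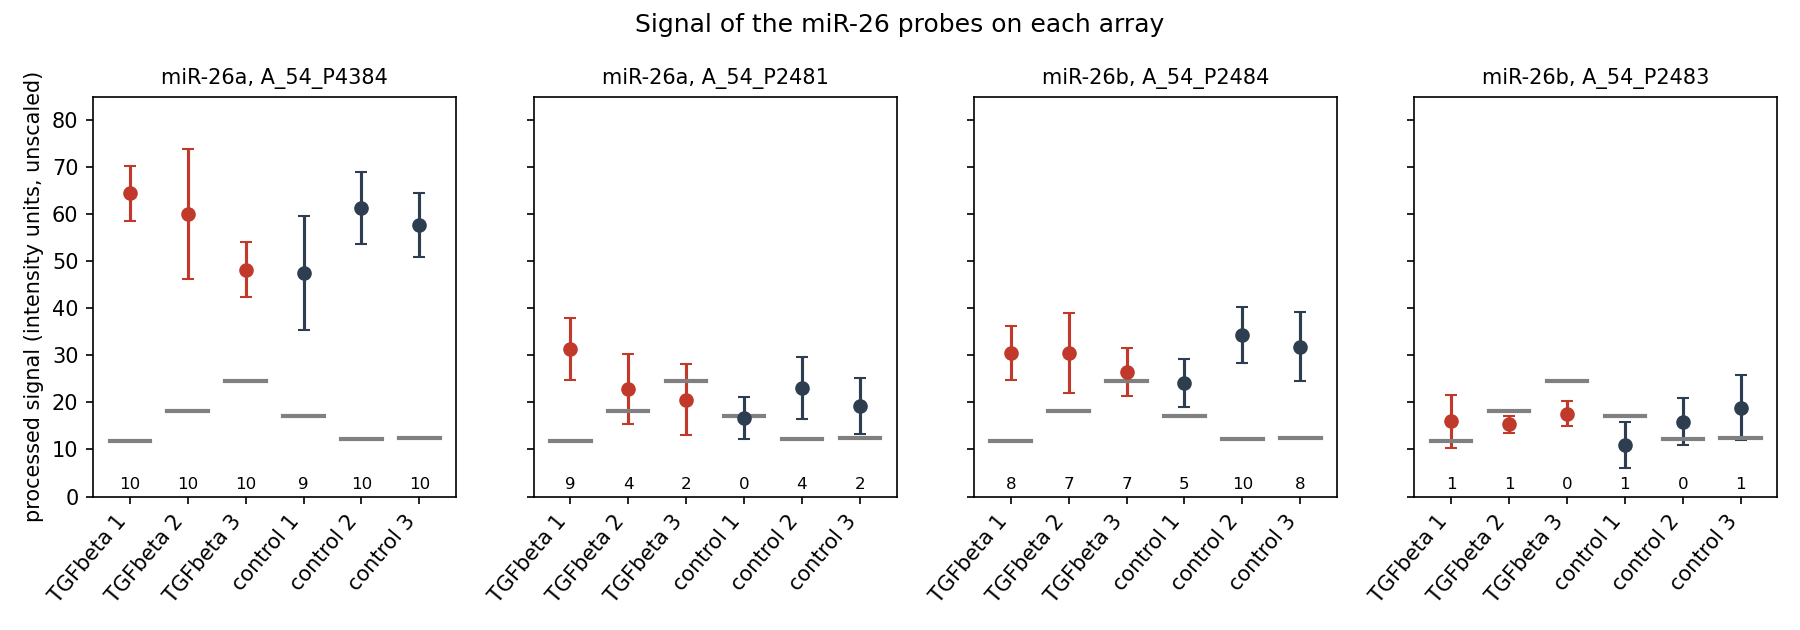
Mean processed signal (y axis, intensity units, not scaled between arrays) of the 4 miR-26 probes on each array (x axis), TGFbeta in red and control in dark blue, with the SD over the spots used as bars. Grey lines give the 95th percentile of negative control spots on that array and the digits the spots well above background out of 10. A_54_P4384 stays above the grey lines on every array, while A_54_P2483 lies above the line on TGFbeta 1 and controls 2 and 3 and below it on TGFbeta 2 and 3 and control 1.

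The opposite arm of the miR-26b hairpin, entered as miR-26b*, was not well above background on any array. Its 4 probes gave mean signals between -4.62 and 8.93 units, and 1 of 20 spots was marked on TGFbeta 2 and 1 of 20 on control 2. Star forms of miR-26a were not analysed here.

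The comparison asked whether TGFbeta altered the members' levels. For it, spots of a probe were averaged, each array was scaled by the 75th percentile of the 105 probes that passed the background limit on every array, the probes of a miRNA were averaged, and log2 was taken. On this scale mmu-miR-26a read 5.42, 5.07 and 5.05 on TGFbeta 1 to 3, and 4.85, 5.68 and 5.66 on controls 1 to 3. The TGFbeta arrays lay below controls 2 and 3 and above control 1, so the groups overlapped. The means were 5.18 ± 0.21 in TGFbeta-treated and 5.40 ± 0.47 in control cells (SD, n = 3 each). The log2 difference was -0.22 (SE 0.27), or 0.861 times the control level, and it did not pass limma's test across all 84 miRNAs (adjusted p = 0.633). Its 95% interval, -0.88 to 0.45, covers levels from 0.543 to 1.37 times that of control.

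mmu-miR-26b followed the same order of groups. It read 4.38, 4.22 and 4.41 on TGFbeta 1 to 3, and 3.98, 4.93 and 5.05 on controls 1 to 3. Again the TGFbeta arrays stood between control 1 and the other controls, with little spread among themselves. The means were 4.33 ± 0.10 in TGFbeta-treated and 4.66 ± 0.59 in control cells (SD, n = 3 each). The log2 difference of -0.32 (SE 0.31), or 0.800 times control, did not pass either (limma adjusted p = 0.564, 95% interval -1.07 to 0.43).

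Limma called 0 of the 84 miRNAs (0.0%), and 8 (9.52%) had an unadjusted p under 0.05, neither member among them. From the lowest upwards, miR-26b held rank 19 and miR-26a rank 27 of the 84 differences. With the replicate number as a block, 1 of 84 miRNAs passed, which was neither member.

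**Figure D2:**
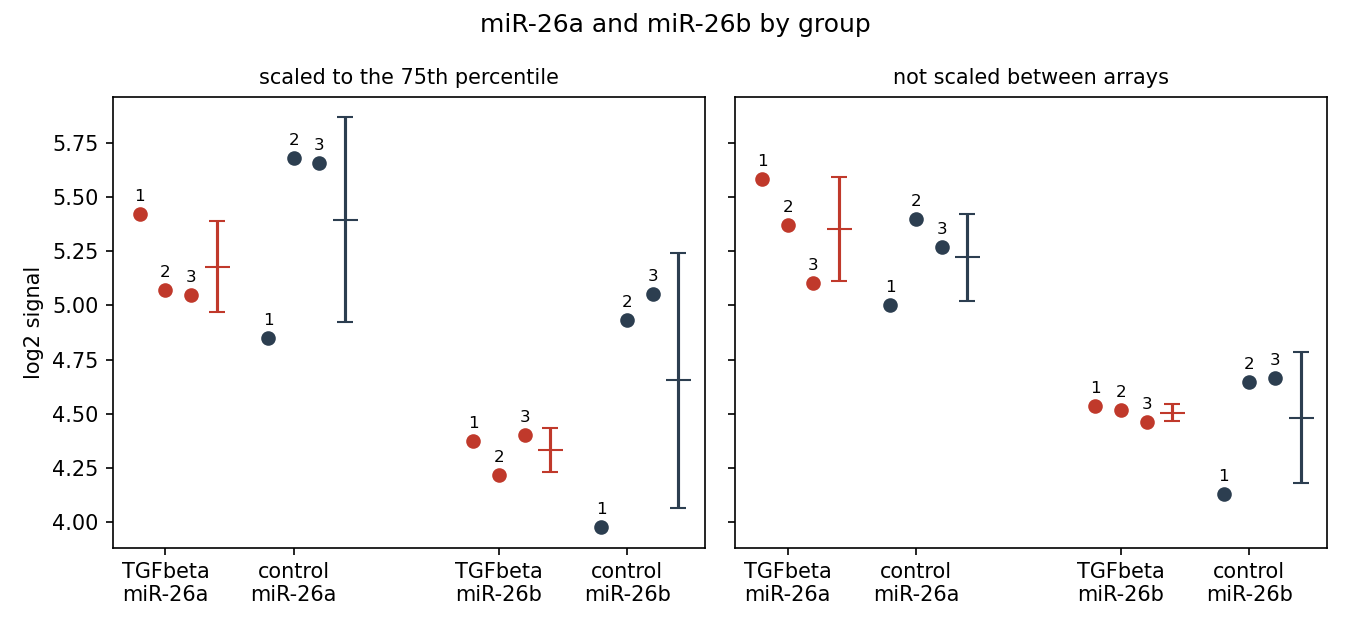
Log2 signal (y axis) of miR-26a and miR-26b in TGFbeta (red) and control (dark blue) arrays, scaled on the left and not scaled on the right. Digits name the replicate and bars give the mean ± SD of 3 arrays. Control 1 is the lowest point of each member in both panels, and unscaled, the group means lie close together.

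The sign of both differences changed with scaling. Unscaled, miR-26a averaged 5.35 ± 0.24 in TGFbeta-treated and 5.22 ± 0.20 in control cells, and miR-26b 4.51 ± 0.039 and 4.48 ± 0.30 in the same order (SD, n = 3 each). Without scaling the log2 differences were 0.13 (SE 0.20, limma adjusted p = 0.688) for miR-26a and 0.024 (SE 0.20, limma adjusted p = 0.958) for miR-26b. The median difference of all 84 miRNAs was 0.26 unscaled and -0.09 scaled. Relative to that median, miR-26a stood at -0.13 and miR-26b at -0.23 under both, which had to be so, since a single factor per array shifts all miRNAs alike. The percentiles used for scaling were 365.3, 402.4 and 339.9 units on TGFbeta 1 to 3, and 363.7, 268.6 and 249.5 on controls 1 to 3.

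After scaling, A_54_P4384 read 42.6 ± 3.46 on control 1, 74.5 ± 2.94 on control 2 and 75.6 ± 2.80 on control 3 (standard error over 10 spots, which covers only the spread within an array). A_54_P2484 read 21.7 ± 1.61, 41.7 ± 2.28 and 41.7 ± 3.04 on the same arrays (standard error over 8, 10 and 10 spots). In log2 terms control 1 differed from the mean of controls 2 and 3 by -0.82 for miR-26a and by -1.01 for miR-26b. Control 1 was the lowest of the 6 arrays for both members and for 14 of the 84 tested miRNAs. The labelling spike-in signal (log10) was 1.82 on control 1 and between 2.09 and 2.14 on the other arrays. Its part in the members' low values there was not tested.

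Without control 1, miR-26b was lower in TGFbeta-treated cells by a log2 difference of -0.67 (SE 0.12), or 0.630 times controls 2 and 3, and passed limma's test across 85 miRNAs (adjusted p = 0.0175). miR-26a differed by -0.50 (SE 0.15), or 0.709 times, and did not pass (limma adjusted p = 0.059, 95% interval -0.89 to -0.10). In that fit 31 of 85 miRNAs were called (36.5%), 20 of them lower (23.5%), against which the call for 1 of the 2 members is to be read. All TGFbeta arrays lay below controls 2 and 3 for both members, which held for 38 of 85 miRNAs (44.7%). Control 1 was left out knowing that it lay with the TGFbeta arrays, and these p-values do not allow for that. With each other array left out in turn, neither member passed.

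**Figure D3:**
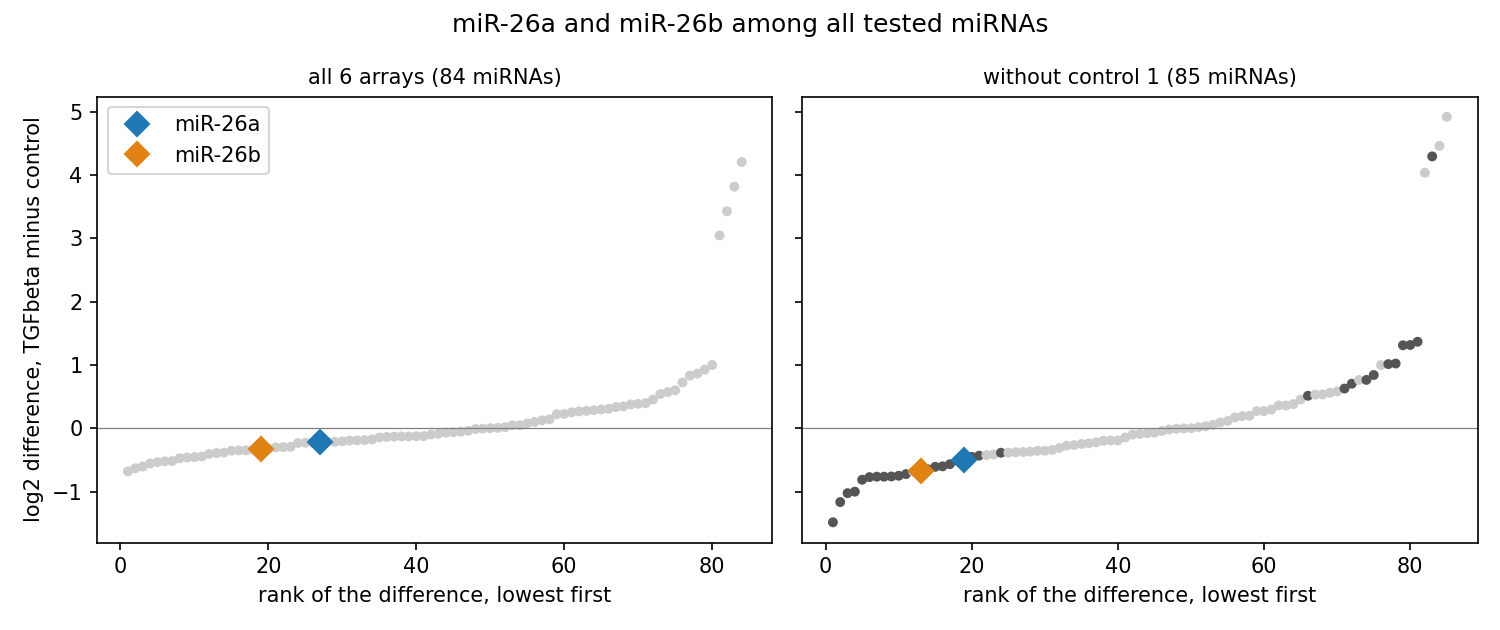
Log2 difference, TGFbeta minus control (y axis), of every tested miRNA in order of size (x axis), with all 6 arrays on the left and without control 1 on the right. Dark grey points passed limma's test at an adjusted p of 0.05 and diamonds mark the members, at -0.22 and -0.32 on the left and -0.50 and -0.67 on the right, among many others that are as low.

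Probe by probe, the 2 member probes that were tested gave like values. With all 6 arrays A_54_P4384 of miR-26a differed by -0.30 (SE 0.26, limma adjusted p = 0.586) and A_54_P2484 of miR-26b by -0.38 (SE 0.29, limma adjusted p = 0.496), and 0 of 128 probes were called (0.0%), with 12 (9.38%) at an unadjusted p under 0.05. The dim probes, which did not enter that test, differed by -0.02 for A_54_P2481 and -0.21 for A_54_P2483, and without control 1 by -0.30 and -0.60. Without control 1 the values were -0.57 (SE 0.14, limma adjusted p = 0.0352) for A_54_P4384 and -0.70 (SE 0.11, limma adjusted p = 0.0199) for A_54_P2484. Both were among 26 of 129 probes called lower (20.2%). At the probe level miR-26a thus passed in that fit through A_54_P4384, while the mean of its 2 probes did not.

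Whether the 2 members responded by different amounts was tested within arrays, where scaling cancels. The log2 signal of miR-26a minus that of miR-26b was 1.05, 0.85 and 0.64 on TGFbeta 1 to 3, and 0.87, 0.75 and 0.60 on controls 1 to 3. The groups overlapped, with 0.85 ± 0.20 in TGFbeta-treated and 0.74 ± 0.13 in control cells (SD, n = 3 each). The difference of 0.11 did not pass an exact two-sided permutation test (p = 0.5), which cannot go below 0.1 with 3 arrays against 3. Taken as same-numbered pairs, TGFbeta minus control was 0.17, 0.10 and 0.039 in pairs 1 to 3, higher in 3 of 3, with an exact two-sided sign-flip p of 0.25, the smallest that 3 pairs can give. Without control 1 the unpaired difference was 0.17 (exact two-sided permutation p = 0.4). The size of the subtraction itself has no meaning as a ratio of levels, since it sets different probes against each other.

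Opposite signs were found in the 2 slide columns with arrays of both groups. Each value there is 1 array minus 1 array, and the control in column 1 is control 1, which stood apart. Column and control array cannot be told apart here. In column 1, TGFbeta 2 minus control 1 was 0.22 for miR-26a and 0.24 for miR-26b. In column 2, TGFbeta 3 minus control 2 was -0.63 for miR-26a and -0.53 for miR-26b. Unscaled, these values were 0.37 and 0.39 in column 1, and -0.29 and -0.19 in column 2. With the column as a block the differences were -0.21 (SE 0.39) for miR-26a and -0.14 (SE 0.38) for miR-26b. They rest on the arrays of columns 1 and 2 only, and neither passed in limma (adjusted p = 0.941 for both). Slide row 1 held all controls and TGFbeta 1, and row 2 held only TGFbeta 2 and 3. With the row as a block, the difference therefore sets TGFbeta 1 alone against the controls. It was 0.026 for miR-26a and -0.28 for miR-26b.

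Over the 6 arrays the members moved alike, with a Pearson r of 0.92 between them, as a description of values that share arrays and scaling. Against the other 83 miRNAs the median r was 0.31 for miR-26a and 0.27 for miR-26b, and the upper quartile 0.73 and 0.80. Among those 83, miR-26b held rank 6 in likeness to miR-26a. Unscaled, r between the members was 0.67 (rank 4, median r of miR-26a with the 83 0.13). Scaled without control 1 it was 0.88 (rank 13, median 0.32). For miR-26a the 5 most alike miRNAs were miR-221 (r = 0.95), miR-27b (0.95), miR-130a (0.95), miR-24 (0.94) and miR-196b (0.93). For miR-26b they were miR-30a* (0.99), miR-221 (0.99), miR-196b (0.98), miR-130a (0.94) and miR-96 (0.94). Each of these 7 was higher on controls 2 and 3 than on control 1, as the members were, to which they were picked to be alike. Control 1 lay below both other controls for 45 of the 84 tested miRNAs.

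miR-221, which represses the cell cycle inhibitor p27 in human cells, was most alike to miR-26a and second to miR-26b. It read 4.22, 3.90 and 4.14 on TGFbeta 1 to 3, and 3.48, 4.85 and 4.94 on controls 1 to 3. It was well above background on 5 of 6 arrays, and its difference was -0.33 with all arrays (limma adjusted p = 0.633) and -0.81 without control 1 (limma adjusted p = 0.0157). miR-196b, encoded in a Hox gene cluster, read 5.63, 5.47 and 5.59 on TGFbeta 1 to 3, and 5.45, 5.88 and 5.95 on controls 1 to 3. Its difference was -0.19 with all arrays (limma adjusted p = 0.564) and -0.35 without control 1 (limma adjusted p = 0.0623), so the likeness of its profile goes with a smaller range.

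**Figure D4:**
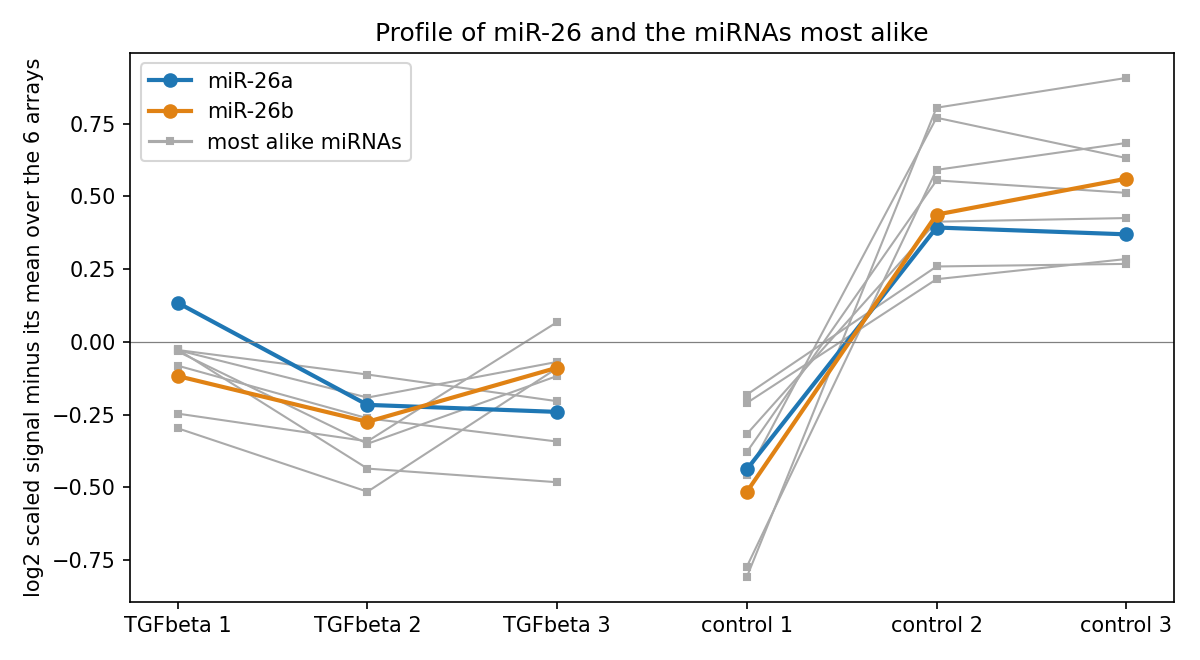
Log2 scaled signal minus its own mean over the 6 arrays (y axis) on each array (x axis) for miR-26a (blue), miR-26b (orange) and the 7 miRNAs most alike to either (grey). Lines join arrays of a group only to lead the eye. Controls 2 and 3 lie above the mean and control 1 below it for every miRNA drawn, the grey ones having been picked for likeness to the members.

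Set beside miRNAs that are broadly expressed as miR-26 is (let-7 with miR-98, miR-103 and miR-107, miR-15 and miR-16, and the miR-23, miR-24 and miR-27 clusters), the members had differences of like size. Of that list's 19 members, all tested, 0 passed in limma, and 19 had a negative scaled difference with a median of -0.23, against -0.09 over all 84 miRNAs. Without scaling 7 of 19 were negative and the median was 0.12, against 0.26 over all 84. With quantile normalization 17 of 19 were negative and the median was -0.31, against -0.17 over all 84. The smallest p values in the list were those of miR-98 (-0.53, SE 0.18, limma adjusted p = 0.391) and miR-15a (-0.40, SE 0.20, limma adjusted p = 0.391). Without control 1, 8 of 19 passed, all lower, where 20 of the 85 tested were called lower (23.5%), with a list median of -0.38 and a median of -0.09 over the 85. miR-27b (-1.02, SE 0.18), miR-23b (-0.75, SE 0.13) and let-7g (-0.61, SE 0.12) had the smallest p there.

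miRNAs reported to fall with TGFbeta or in kidney fibrosis had differences of both signs. Of 13 entries, 5 were tested and 0 passed in limma, with 4 positive and 1 negative and a median of 0.23. The miR-30a difference was -0.68 (SE 0.33, limma adjusted p = 0.391) and that of miR-29a, of a family that represses collagen mRNAs, 0.39 (SE 0.25, limma adjusted p = 0.433). With total signal scaling 0 of 5 were positive, and with normexp background correction 2 of 5. Without control 1, miR-30c (-1.48, SE 0.31) and miR-30a (-0.998, SE 0.22) passed as lower and miR-29a (0.63, SE 0.14) as higher, 3 of 6 tested, where 31 of the 85 tested were called in either direction (36.5%).

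Of 10 miRNAs reported to rise, 2 were tested, and 0 passed in limma with all arrays or without control 1. The miR-21 difference was 0.40 (SE 0.26, limma adjusted p = 0.433) and that of miR-155 was 0.05 (SE 0.15, limma adjusted p = 0.851). With quantile normalization and with total signal scaling both were negative, and with normexp 1 of 2 was.

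**Figure D5:**
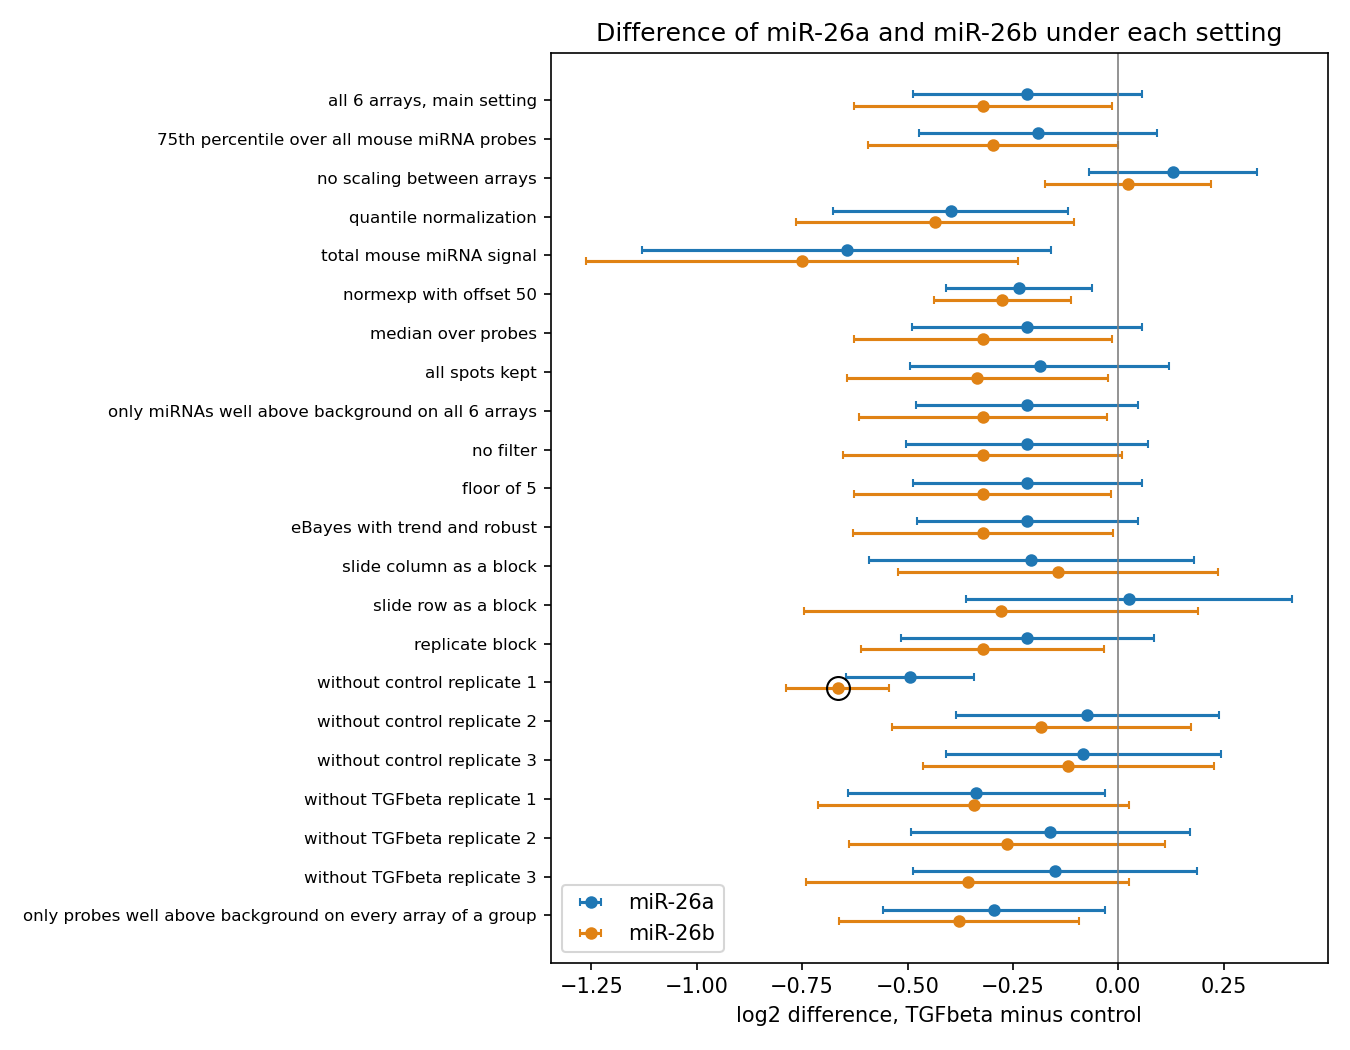
Log2 difference, TGFbeta minus control (x axis), of miR-26a (blue) and miR-26b (orange) under each setting (y axis), with the SE as bars. A black ring marks the only value past limma's adjusted p of 0.05, that of miR-26b without control 1 at -0.67, and only the settings without scaling and with the slide row as a block hold a value above 0.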

How the data were processed

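The authors deposited a scanner file for each array, with the intensity of every spot after background subtraction but before any scaling of arrays. Per the file headers, Agilent Feature Extraction 10.7.3.1 made them, while the submitters' processing notes give version 10.1.1. Intensity values in the deposited value table of the series were identical (largest difference 0). No mouse miRNA spot was saturated. The headers name build mm9 and the RefSeq sequences GRCm38.p6, so positions are those of the sequence table only.

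Spots marked as outliers were left out (8 of 240 member spots). Spots were averaged per probe, arrays scaled as described, probes averaged per miRNA on the linear scale, a floor of 1 set and log2 taken. A miRNA was tested if, on every array of a group, any of its probes was well above background, not necessarily the same probe on each array. Where an array was left out, the scaling probes were chosen anew. Two-sided limma fits (version 3.58.1, R 4.3.3) used eBayes and Benjamini-Hochberg adjustment at 0.05, and were tested on simulated data. The simulated shift was larger than any difference of the members, so that test does not cover changes of their size. Exact permutation tests used scipy 1.17.1. The number of arrays limits the precision.

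Same-numbered arrays deviated together (correlation over 84 miRNAs 0.38, 0.37 and 0.52 for numbers 1 to 3). Differently numbered arrays were not compared in this way, so these values do not show that the numbers pair the arrays. The labels do not state a pairing either. The main fits used none, and same-numbered pairs entered only as an alternative. Alternatives changed scaling, background correction, summaries, filter, floor, variance model, blocks and arrays. Named miRNAs were the members, the 5 most alike to each, and in each list the 2 with the smallest p, or up to 3 that passed. The members and lists were chosen with earlier results of these data known.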

Additional observations from a re-analysis of the deposited data

How the results depend on the processing

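Over 21 alternatives each, 19 left miR-26a and 19 left miR-26b with the sign and the side of the threshold they had with all 6 arrays. The median over probes, the filter changes, the higher floor, the variance model and the replicate block left both differences exactly as they were. Those alternatives bear only on the p-values, not on the sign. Both turned positive without scaling between arrays, to 0.13 for miR-26a and 0.024 for miR-26b. With the slide row as a block miR-26a turned positive too, to 0.026, with TGFbeta 1 as the only treated array in that contrast. Total signal scaling gave -0.64 and -0.75, and quantile normalization -0.40 and -0.44, for miR-26a and miR-26b in that order. The median difference of all 84 miRNAs moved as well, to -0.52 with total signal scaling and -0.17 with quantile normalization. Relative to that median the members stood at -0.13 and -0.23 with total signal scaling, the same as with percentile scaling. With quantile normalization they stood at -0.23 and -0.27. Without control 1, miR-26b passed in limma at -0.67, and leaving out single arrays put it between -0.67 and -0.12, and miR-26a between -0.50 and -0.07. Adjusted p-values from limma ranged over 0.059 to 1 for miR-26a and 0.0175 to 0.987 for miR-26b. The count of miRNAs called, 0 with all arrays, was 1 with total signal scaling, 3 with the slide row as a block, 1 with the replicate block, and 0 to 31 with single arrays left out, 31 being without control 1. The replicate block left miR-26a at -0.22 and miR-26b at -0.32 and changed no other call. The count of member probes called, 0, was 0 to 2 with single arrays left out, 2 being without control 1. The within-array difference stayed positive under 16 alternatives (0.0059 to 0.21), the replicate block, added after seeing the data, giving 0.11. Not all of these are separate checks. Scaling by a single factor per array cancels, and the median over probes, the higher floor and the replicate block left the value as it was. Using only probes well above background in a group, an alternative chosen after seeing the data, gave -0.30 for miR-26a and -0.38 for miR-26b. Both members were dim, and their probes other than A_54_P4384 lay close to background. How far this limits the change these arrays could show was not tested. The normexp correction used median spot signal because mean spot signal was not in the files used here.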
